A study of Caenorhabditis elegans with 12 samples.

Results

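The genes ssp-31 to ssp-37 encode sperm-specific proteins of class P, small proteins that each hold a single major sperm protein (MSP) domain. They were taken as every gene whose name is ssp-3 followed by 1 more digit, which gave 7 of the 32238 genes in the tables. For each gene the small RNA reads on the strand opposite to it were counted, in populations of whole Caenorhabditis elegans hermaphrodites. There were 4 strains with 3 libraries each: the double mutant age-1(hx546); rde-4(ne301), the single mutants age-1(hx546) and rde-4(ne301), and the N2 wild type (WT). All were synchronized young adults on their first day of adulthood, before embryos could be seen, grown at 20 °C on E. coli OP50. Each mutation was represented by 1 allele, and both singles share that allele with the double mutant. The libraries favored RNAs with a 5′ monophosphate, which Dicer products such as primary siRNAs and microRNAs carry, and inserts of 18 to 40 bp were kept.

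The major sperm proteins, whose domain the class P proteins share, drive the crawling of nematode sperm, which lack actin-based movement, and are also released as a signal to oocytes. Hermaphrodites make their sperm as larvae and then switch to oocytes, so that young adults carry stored sperm and a germline that makes oocytes. Many genes of spermatogenesis are targets of endogenous siRNAs. Primary siRNAs are cut by Dicer together with RDE-4, a protein that binds double-stranded RNA, from templates made by the polymerase RRF-3, and the Argonautes ALG-3 and ALG-4 bind them during spermatogenesis. AGE-1 is the phosphoinositide 3-kinase of insulin/IGF-1 signaling. An antisense read therefore stands for a small RNA that could pair with the messenger RNA of the gene, and none of the values below is a level of ssp messenger RNA or protein.

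Antisense reads of most of these genes were lower where RDE-4 was lost. In rde-4 mutants 5 of the 6 genes that could be tested were lower than in WT (edgeR adjusted p under 0.05), beside 16% of all genes tested. In the double mutant 6 of 6 were lower than in age-1, beside 30% of all genes tested. ssp-35 was 6.20-fold lower in rde-4 than in WT and 6.67-fold lower in the double mutant than in age-1, and ssp-33 was close to it at 4.54-fold and 6.10-fold lower. In age-1 alone, all 6 genes had fitted levels above those in WT, by 1.32-fold (ssp-34) to 2.39-fold (ssp-36). Only ssp-36 passed the test, beside 7.66% of all genes tested that were higher. That count was not firm. It was 4 with the replicate number as a block, beside 21.7% of all genes tested that were higher. It was 0 when any of 5 single libraries was left out, beside 0.16% to 2.73% of all genes tested that were higher. The seventh gene, ssp-37, had 8 reads in all 12 libraries together and was too low to test.

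The 7 genes lie on chromosomes I, IV and V of the genome build WBcel235. ssp-34 (WBGene00013858, locus ZC168.6), which had the most reads, lies at IV:10738279-10738602 on the minus strand. On the same chromosome are ssp-36 (WBGene00011749, T13F2.12) at IV:9765637-9766350 on the minus strand and ssp-32 (WBGene00006049, F32B6.7) at IV:9895388-9896136 on the plus strand. ssp-35 (WBGene00010091, F55C5.1) at V:12263500-12263823 and ssp-33 (WBGene00011134, R08A2.3) at V:14711377-14711700 lie on the minus and the plus strand of chromosome V. ssp-31 (WBGene00006048, ZK1225.6) at I:13219141-13219464 and ssp-37 (WBGene00012211, W02D9.5) at I:12561040-12561560 lie on the plus and the minus strand of chromosome I. The genes are not a tight cluster: the closest pair, ssp-36 and ssp-32, is 129038 bp apart, and the widest gap between neighbors, ssp-35 to ssp-33, is 2447554 bp.

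In gene structure the 7 fall into a pair of kinds. ssp-31, ssp-33, ssp-34 and ssp-35 are annotated as a single exon of 324 bp with no UTR. ssp-32, ssp-36 and ssp-37 have 2 exons with annotated 5′ and 3′ UTRs, and the exon length used in the counting was 440 bp, 413 bp and 451 bp. The coding sequences give 107 residues in 6 genes and 112 in ssp-37. No annotated gene overlaps any of the 7 on either strand. This holds for annotated ends only, and transcripts of neighbors that run past those ends were not looked for. Reads with several genomic hits were counted, so an antisense read here can also match another position.

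Total antisense counts ran from 2449703 to 3590005 per library, of which the 7 genes made up 0.00683% to 0.0842%. Most of each total lay on genes opposite a miRNA gene, at 58.9% to 81.0%, and the share opposite tRNA genes was 17.7% to 28.4% in the double mutant, 5.63% to 23.8% in age-1, 14.3% to 21.6% in rde-4 and 5.03% to 8.27% in WT. Levels below are in CPM, reads relative to the total of their library, after scaling by trimmed mean of M-values (TMM) over all 12 libraries, while each fold change comes from a fit of the 6 libraries it compares. The part of these shares in the results was not tested. The TMM factors were 0.432 to 0.596 in the double mutant and 0.948 to 1.73 in the other strains. The double mutant was thus scaled up relative to its totals, and every comparison that holds it depends on this choice in size.

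The nearest genes differed in kind. ssp-32 and ssp-36 each have a major sperm protein gene as the nearest coding gene on the same strand, msp-77 at 374 bp and msp-79 at 421 bp. msp-79 averaged 6.61 CPM in the double mutant, 20.3 CPM in age-1, 4.02 CPM in rde-4 and 10.3 CPM in WT, and it was lower in rde-4 than in WT (log2 fold change -1.36) and lower in the double mutant than in age-1 (-1.60). msp-77 was lower in the double mutant than in age-1 (-1.81), while its change of -1.11 in rde-4 did not pass. The nearest coding genes of ssp-34 and ssp-37, grl-21 at 88 bp and W02D9.6 at 368 bp, had 0 antisense reads in every library, and tbb-6, 132 bp from ssp-35, had at most 3. The MSP genes have many near-identical copies and reads with several genomic hits were counted, so values of single msp genes are uncertain.

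ssp-34 carried 59.3% of the reads of the 7 genes, against 17.5% for ssp-35, 9.55% for ssp-31 and 8.31% for ssp-36. The remainder was 3.05% for ssp-32, 2.27% for ssp-33 and 0.073% for ssp-37. These shares are of the reads pooled over 12 libraries, to which age-1 gave the most, and in single libraries ssp-34 ran between 45.7% and 76.1% and ssp-35 between 3.15% and 25.7%. Per kilobase of counted exon, ssp-34 was first in 12 of 12 libraries and ssp-37 last in 12 of 12. ssp-34 had 591 ± 82.3 CPM per kb in WT and ssp-35 160.1 ± 50.1 CPM per kb (SD, n = 3), so that these neighbors in the order lay apart by more than their spread. ssp-31 followed in WT with 79.0 ± 6.91 CPM per kb and ssp-36 with 44.5 ± 2.13 CPM per kb. ssp-33 and ssp-32 did not differ beyond their spread, with 21.5 ± 4.84 and 15.5 ± 5.08 CPM per kb in WT, and each of them ranked 5 in 6 libraries and 6 in the other 6. The place of ssp-35 was less fixed where RDE-4 was lost: it had 45.4 ± 44.6 CPM per kb in the double mutant and 26.1 ± 14.7 CPM per kb in rde-4, beside 56.7 ± 10.98 and 22.03 ± 3.39 CPM per kb for ssp-31.

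For all 6 tested genes the strain means stood in the same order, with age-1 highest, then WT, then the double mutant and rde-4 lowest. Summed over the 7 genes the level was 172 ± 81.0 CPM in the double mutant, 503 ± 180.0 CPM in age-1, 96.4 ± 24.7 CPM in rde-4 and 302 ± 23.7 CPM in WT (SD, n = 3 each). As a share of all antisense counts, with no TMM factor, the same sum was 0.0085% ± 0.0025 in the double mutant, 0.0654% ± 0.0185 in age-1, 0.0102% ± 0.0014 in rde-4 and 0.0403% ± 0.0081 in WT. The bottom of the order thus turned with the scaling, and the double mutant and rde-4 differed on the share of counts by less than the SD of the double mutant. Worms were measured whole, so fewer cells that make these small RNAs and fewer small RNAs per cell cannot be told apart.

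**Figure D1:**
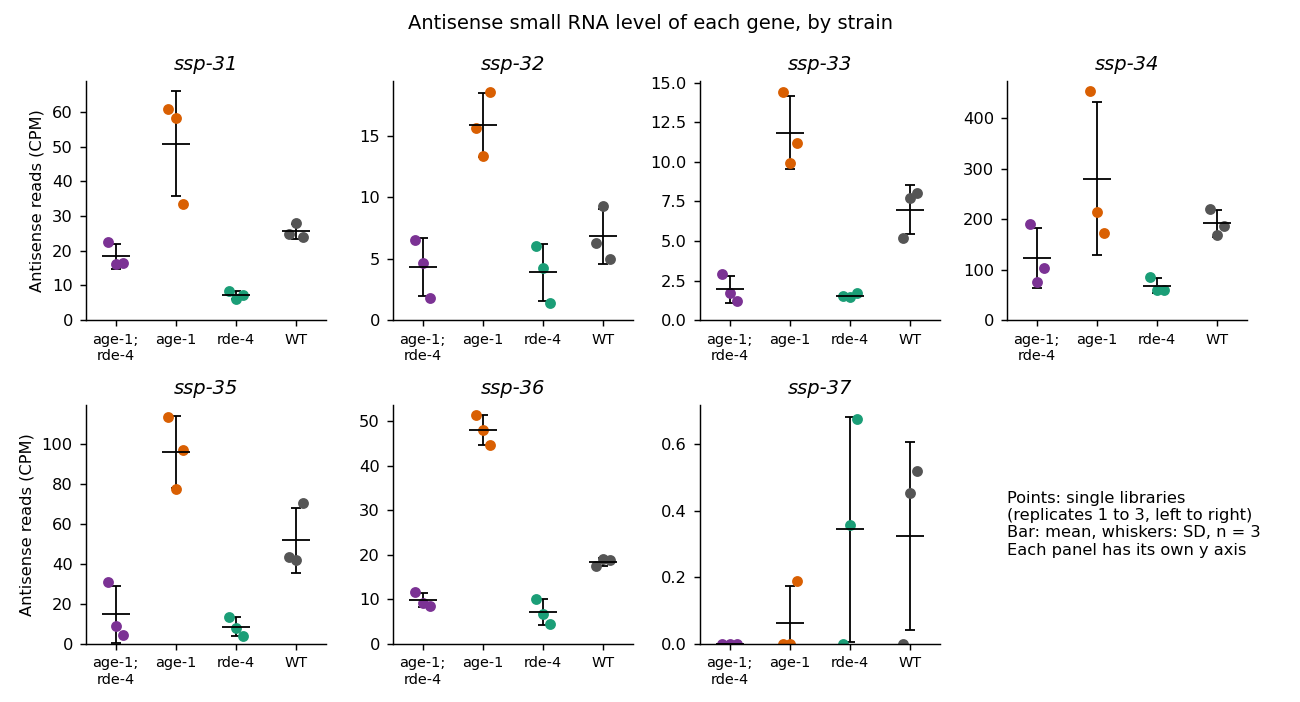
Antisense reads of each gene in CPM (TMM over 12 libraries, linear axis from 0, a separate axis per gene) for the double mutant, age-1, rde-4 and WT. Points are the 3 libraries of a strain, the bar is their mean and the whiskers their SD. For ssp-35 the 3 rde-4 libraries lie between 4.06 and 13.5 CPM, all below the WT libraries at 41.7 to 70.6 CPM.

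The comparison of rde-4 with WT asks which small RNAs need RDE-4 where insulin signaling is intact. ssp-34 had 85.2, 59.5 and 59.2 CPM in rde-4, against 220.4, 168 and 186 CPM in WT. ssp-35 had 13.5, 7.84 and 4.06 CPM in rde-4, against 43.3, 41.7 and 70.6 CPM in WT. ssp-31 had 8.25, 6.06 and 7.10 CPM in rde-4, against 24.8, 28.1 and 23.9 CPM in WT. In these 3 genes every rde-4 library was below every WT library. The log2 fold changes were -1.51 for ssp-34 (SE 0.40, edgeR adjusted p = 0.00843), -2.63 for ssp-35 (SE 0.46, adjusted p = 4.5e-04) and -1.85 for ssp-31 (SE 0.35, adjusted p = 7.9e-04).

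The genes with fewer reads gave the same direction. ssp-36 had 10.1, 6.77 and 4.40 CPM in rde-4, against 17.4, 19.1 and 18.7 CPM in WT, with no overlap and a change of -1.39 on the log2 scale (SE 0.38, adjusted p = 0.0101). ssp-33 had 4, 4 and 5 reads in the rde-4 libraries, against 14, 34 and 31 reads in WT, again with no overlap, and its log2 fold change was -2.18 (SE 0.45, adjusted p = 0.00146). ssp-32 was the exception. It had 6.002, 4.28 and 1.35 CPM in rde-4, against 6.29, 9.30 and 4.93 CPM in WT, so that the groups overlapped, and its log2 fold change of -0.85 did not pass (SE 0.47, adjusted p = 0.234, 95% interval -1.86 to 0.15). That interval does not exclude a fall as large as that of ssp-34.

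Of the 6 tested genes 5 were lower in rde-4 than in WT and 0 higher, where 16% of the 4797 genes tested in this comparison were lower and 10.8% higher. The libraries of the strains did not overlap, with rde-4 lower, in the same 5 genes and in 21.3% of tested genes. The median log2 fold change was -1.68 over the 6 genes and 0.06 over all tested genes. When rde-4 replicate 2 was left out, 3 genes passed, because ssp-34 (adjusted p = 0.0519) and ssp-36 (adjusted p = 0.0589) did not. In that fit 12.4% of all genes tested were lower. Over every alternative tried, the adjusted p ranged between 1.9e-05 and 0.0519 for ssp-34 and between 0.0013 and 0.0589 for ssp-36. ssp-31, ssp-33 and ssp-35 passed under each of them, with log2 fold changes no weaker than -1.74, -2.07 and -2.29.

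The comparison of the double mutant with age-1 asks the same of RDE-4 where insulin signaling is reduced. ssp-36 had 11.6, 9.22 and 8.56 CPM in the double mutant, against 51.3, 47.9 and 44.6 CPM in age-1. ssp-35 had 31.2, 8.65 and 4.28 CPM in the double mutant, against 113.5, 77.4 and 97.0 CPM in age-1. ssp-33 had 4, 3 and 2 reads in the double mutant, against 49, 40 and 59 reads in age-1. In each of these 3 genes every double mutant library was below every age-1 library, although the double mutant libraries of ssp-35 differed among themselves by more than those of the others. The log2 fold changes were -2.30 for ssp-36 (SE 0.38, edgeR adjusted p = 7.9e-05), -2.74 for ssp-35 (SE 0.54, adjusted p = 4.3e-04) and -2.61 for ssp-33 (SE 0.53, adjusted p = 6.0e-04).

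ssp-31 had 22.5, 16.1 and 16.5 CPM in the double mutant, against 60.7, 58.3 and 33.4 CPM in age-1, with a change of -1.44 (SE 0.37, adjusted p = 0.00362). ssp-32 had 6.53, 4.61 and 1.83 CPM in the double mutant, against 15.6, 13.4 and 18.6 CPM in age-1, with a change of -1.92 (SE 0.50, adjusted p = 0.00393). ssp-34 was the least firm of the 6. It had 190.0, 74.9 and 103.3 CPM in the double mutant, against 453, 214 and 173 CPM in age-1, where replicate 1 of both strains stood highest. On this scale of 12 libraries the highest double mutant library exceeded the lowest age-1 library, while under the scaling of the 6 libraries the groups did not overlap, and the log2 fold change was -1.15 (SE 0.43, adjusted p = 0.0345).

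All 6 tested genes were lower in the double mutant than in age-1, where 30% of the 4003 tested genes were lower and 19.1% higher. The libraries did not overlap, with the double mutant lower, in the same 6 genes and in 34.7% of tested genes. The median log2 fold change was -2.11 over the 6 genes and 0.02 over all tested genes. The 6 genes have no annotated gene on the other strand. Among the 2522 tested genes of that kind, 916 were lower and 228 higher, with a median of -0.47. ssp-34 no longer passed without age-1 replicate 1 (-0.77, adjusted p = 0.232), without double mutant replicate 2 (-0.94, adjusted p = 0.172), without double mutant replicate 3 (-1.08, adjusted p = 0.139), or when only genes with no gene on the other strand were kept (-0.85, adjusted p = 0.125). Its adjusted p over all alternatives ran between 6.0e-05 and 0.232. With library totals in place of TMM the median of the 6 genes was -3.47 and that of all tested genes -1.32, and 228 genes were higher and 2078 lower in place of 766 and 1201, so that the fall of the 6 genes relative to the rest changed less than its size.

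**Figure D2:**
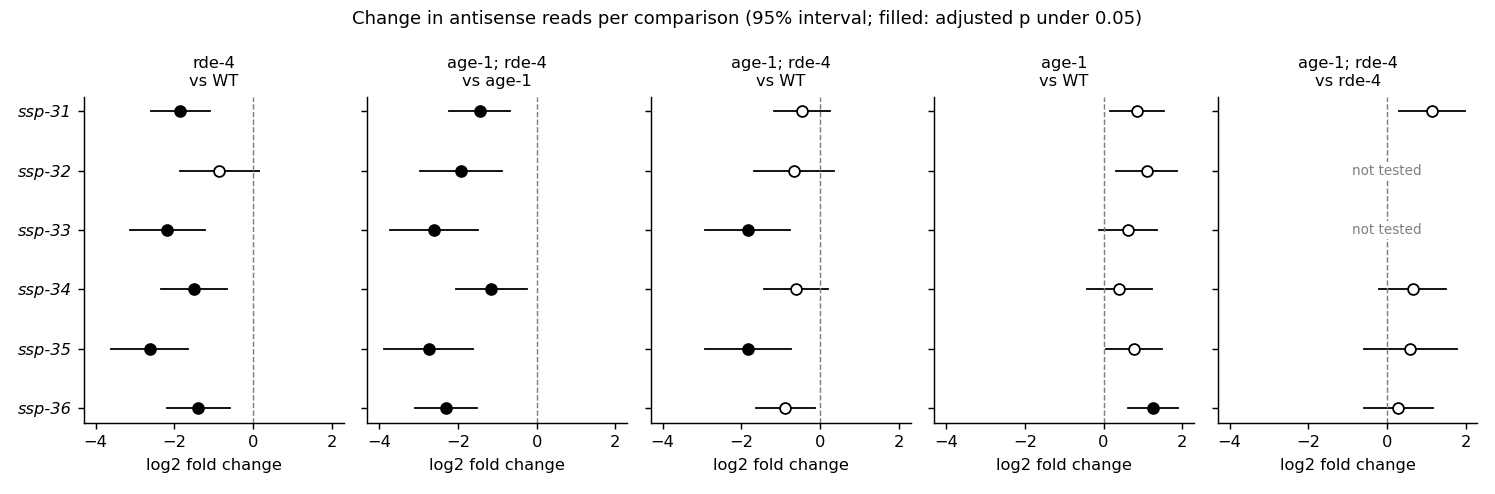
Log2 fold change in antisense reads (horizontal axis) of the 6 tested genes (rows) in 5 comparisons (panels), each with its 95% interval. Filled points have an edgeR adjusted p under 0.05: 5 genes for rde-4 against WT, 6 for the double mutant against age-1, 2 for the double mutant against WT, 1 for age-1 against WT and 0 for the double mutant against rde-4, where ssp-32 and ssp-33 were not tested.

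The interaction contrast over all 12 libraries asks whether loss of RDE-4 had another effect in the age-1 background than in the WT background. No gene of the 6 passed (0 in edgeR, 0 at an unadjusted p under 0.05 and 0 in DESeq2). Of the 5843 genes tested, 0.154% passed in edgeR and 516 had an unadjusted p under 0.05. The differences between the effects, on the log2 scale, were -1.06 for ssp-32 (95% interval -2.48 to 0.37), -0.92 for ssp-36 (-2.02 to 0.19), -0.44 for ssp-33 (-1.91 to 1.03) and -0.11 for ssp-35 (-1.67 to 1.45). For ssp-31 and ssp-34 they were 0.37 (-0.71 to 1.45) and 0.30 (-0.97 to 1.58), and the sign of both turned under other scalings. These intervals are wide, and they allow effects of RDE-4 that differ by more than 2-fold between the backgrounds in either direction for ssp-33 and ssp-35.

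The comparison of age-1 with WT asks what reduced insulin signaling alone does to these small RNAs. ssp-36 had 51.3, 47.9 and 44.6 CPM in age-1, against 17.4, 19.1 and 18.7 CPM in WT, with no overlap. The closeness of the WT values depends on scaling: their counts were 47, 84 and 72, with TMM factors of 0.985, 1.63 and 1.48. The log2 fold change of ssp-36 was 1.26 (SE 0.30, edgeR adjusted p = 0.0329), or 2.39-fold. ssp-32 had 53, 54 and 98 reads in age-1, against 17, 41 and 19 reads in WT, and did not pass (log2 fold change 1.09, SE 0.37, adjusted p = 0.0567). The values of ssp-31 (0.85, adjusted p = 0.0776), ssp-35 (0.77, adjusted p = 0.112), ssp-33 (0.62, adjusted p = 0.188) and ssp-34 (0.40, adjusted p = 0.434) did not pass either. For ssp-34 the groups overlapped, since only age-1 replicate 1 exceeded the highest WT library.

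Thus 1 of 6 genes was higher in age-1 than in WT and 0 lower, where 7.66% of the 5000 genes tested were higher and 3.28% lower. The libraries did not overlap, with age-1 higher, in 5 of the 6 genes, all but ssp-34, and in 24% of tested genes. The median log2 fold change was 0.81 over the 6 genes and -0.17 over all tested genes. With the replicate number as a block, 4 genes passed, namely ssp-31 (adjusted p = 0.0168), ssp-32 (0.00737), ssp-35 (0.0278) and ssp-36 (6.4e-04), and DESeq2 also passed 4. Over all genes tested, 21.7% were higher with the block and 19.4% in DESeq2, so both raised the count for the 6 genes and for the table as a whole. In the other direction, ssp-36 no longer passed when any 1 library other than age-1 replicate 3 was left out (adjusted p between 0.0587 and 0.128) or with library totals (0.0529), while its log2 fold change stayed between 1.23 and 1.58. In those fits 0.16% to 2.74% of all genes tested were higher, so the count fell for the table as a whole too. The adjusted p of ssp-36 over all alternatives ran between 6.4e-04 and 0.128.

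The comparison of the double mutant with WT sets both mutations against none. The values of both strains are given above for each gene. ssp-33 (log2 fold change -1.84, SE 0.51, edgeR adjusted p = 0.00998) and ssp-35 (-1.83, SE 0.52, adjusted p = 0.012) were lower in the double mutant. The values of the others were -0.89 for ssp-36 (adjusted p = 0.0758), -0.67 for ssp-32, -0.61 for ssp-34 and -0.46 for ssp-31 (adjusted p between 0.281 and 0.374). That is 2 of 6 genes lower and 0 higher, where 12.8% of the 3977 genes tested were lower and 14.8% higher. The libraries did not overlap, with the double mutant lower, in 4 genes and in 21% of tested genes.

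This comparison was the one that depended most on scaling. With library totals, or with scaling by reads opposite miRNA genes, 6 of 6 genes were lower in the double mutant than in WT, with medians of -2.20 and -1.87 in place of -0.78. Of all genes tested, 63.3% and 46.2% were lower under these scalings, in place of 12.8%. Those scalings moved all tested genes down as well, to medians of -1.40 and -1.07, against -0.02 with TMM. Relative to that shift the 6 genes stood at about the same distance. The number that passed also fell to 0 without double mutant replicate 2 or replicate 3 and to 1 without WT replicate 3. In these fits 7.53%, 7.28% and 10.4% of all genes tested were lower.

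**Figure D3:**
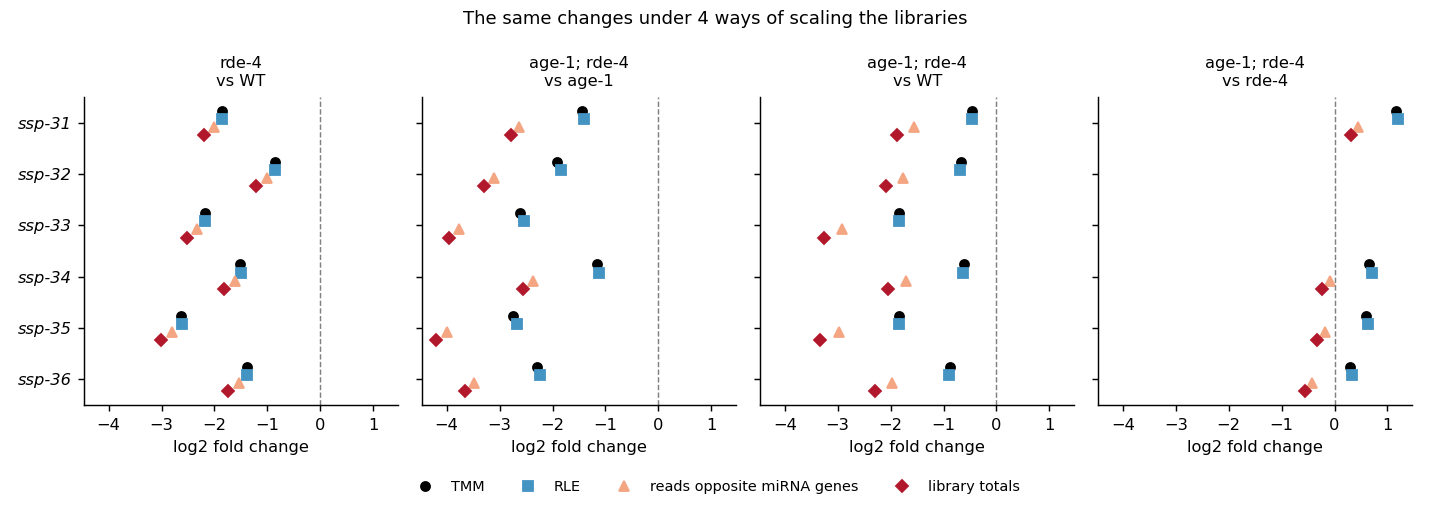
Log2 fold change (horizontal axis, the same in each panel) of the tested genes (rows) in 4 comparisons (panels) under 4 ways of scaling the libraries. TMM and RLE nearly coincide, and library totals and reads opposite miRNA genes lie further left wherever the double mutant is compared, by enough to turn the sign of ssp-34, ssp-35 and ssp-36 in the double mutant against rde-4.

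The double mutant against rde-4 asks what age-1 changes where RDE-4 is already lost. ssp-32, ssp-33 and ssp-37 fell below the filter on low counts, with 20, 9 and 0 reads over the 3 double mutant libraries and 32, 13 and 3 reads over the 3 rde-4 libraries. Of the 4 genes left, 0 passed in edgeR, 1 had an unadjusted p under 0.05 and 0 passed in DESeq2. Of the 3581 genes tested, 0.866% passed in edgeR and 539 had an unadjusted p under 0.05. ssp-31 had the largest value, with 22.5, 16.1 and 16.5 CPM in the double mutant, against 8.25, 6.06 and 7.10 CPM in rde-4. These libraries did not overlap, as in 9.8% of tested genes in that direction, but its log2 fold change of 1.15 did not pass (95% interval 0.31 to 1.99, adjusted p = 0.171). The other values were 0.66 for ssp-34 (-0.20 to 1.51), 0.60 for ssp-35 (-0.59 to 1.79) and 0.29 for ssp-36 (-0.60 to 1.17). All 3 turned negative with library totals, at -0.24, -0.33 and -0.56, where the median of all tested genes was -0.87, so no direction can be given for them.

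ssp-37 stood apart from the other 6 in every strain. It had 0, 0 and 0 reads in the double mutant, 0, 0 and 1 in age-1, 0, 1 and 2 in rde-4 and 0, 2 and 2 in WT. The 0 reads among 9124259 antisense counts of the double mutant allow up to 0.329 CPM before TMM scaling, taken as 3 counts over the strain, and WT was at 0.492 CPM on the same scale. These limits cover counting error only, and a change of ssp-37 between strains was not detectable at this depth. It is also the gene whose protein differs in length from the others.

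Ratios between genes of the same library do not depend on how libraries are scaled. Set against the ssp-34 count of the same library, ssp-35 stood at 16.4%, 11.54% and 4.14% in the double mutant and 25.05%, 36.2% and 56.2% in age-1. In rde-4 it stood at 15.9%, 13.2% and 6.86%, against 19.6%, 24.9% and 37.9% in WT. The groups did not overlap in either pair, so that where RDE-4 was lost ssp-35 had fewer reads per read of ssp-34 in every library. For ssp-33 the ratio to ssp-34 averaged 1.67% ± 0.58 in the double mutant and 4.77% ± 1.66 in age-1, and 2.34% ± 0.55 in rde-4 against 3.75% ± 1.22 in WT, where the ranges overlapped.

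The genes did not all shift alike. ssp-36 averaged 10.2% ± 2.44 of ssp-34 in rde-4 and 9.76% ± 1.75 in WT, much the same ratio. In the double mutant it averaged 8.90% ± 3.15 and in age-1 19.8% ± 7.59, with ranges of 6.11% to 12.3% and 11.3% to 25.9% that overlapped. ssp-31 averaged 16.4% ± 4.87 of ssp-34 in the double mutant and 20.0% ± 6.94 in age-1, and 10.6% ± 1.22 in rde-4 against 13.6% ± 2.84 in WT. For both pairs of ssp-31 the libraries overlapped. ssp-32 averaged 5.51% ± 2.79 of ssp-34 in rde-4 and 3.68% ± 1.61 in WT, a higher mean where RDE-4 was lost. In the double mutant it averaged 3.79% ± 2.21 and in age-1 6.83% ± 3.70, and its libraries overlapped in both pairs. These ratios are a description of 3 libraries per strain and were not tested.

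**Figure D4:**
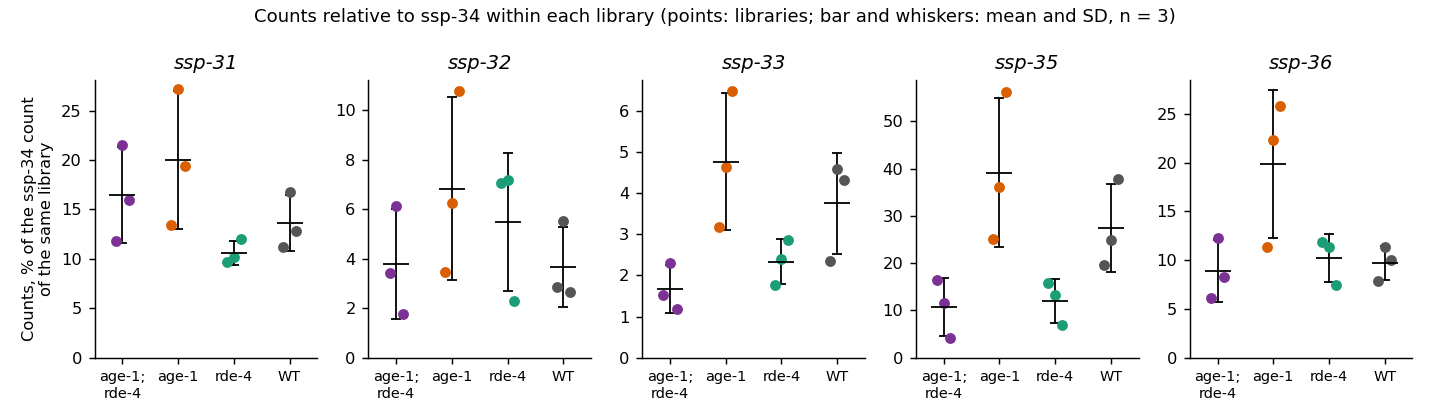
Count of each gene as a percentage of the ssp-34 count of the same library (vertical axis, from 0, a separate axis per gene) for the double mutant, age-1, rde-4 and WT. Points are libraries, and the bar and whiskers are the mean and SD of 3. The ssp-35 ratio lies at 4.14% to 16.4% in the double mutant, all below age-1 at 25.05% to 56.2%, and at 6.86% to 15.9% in rde-4, all below WT at 19.6% to 37.9%.

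Beside the other sperm gene lists, the ssp-31 to ssp-37 set was not alone in its direction. The other class P genes in the tables, 5 in number and including ssp-16, were lower in 5 of 5 in rde-4 against WT (median log2 fold change -2.83), in 5 of 5 in the double mutant against age-1 (-2.83) and in 5 of 5 in the double mutant against WT (-2.02). In the first of these comparisons their values ran between -3.25 and -2.59, a range that held ssp-35 at -2.63 and none of the other 5 tested genes of the set. The class Q genes (ssq), another family of small sperm-specific proteins, were lower in 3 of 4 in rde-4 and in 4 of 4 in the double mutant against age-1, with medians of -1.69 and -2.03. Major sperm protein genes were lower in 12 of 24 tested in rde-4 (6 of 32 in DESeq2) and in 22 of 30 tested in the double mutant against age-1 (20 of 32 in DESeq2). Genes named spe or fer, found by their sperm or fertility defects, were lower in 9 and higher in 1 of 19 in rde-4, and lower in 10 and higher in 1 of 20 in the double mutant against age-1. Whether the sets differ from each other was not tested.

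Genes of the siRNA pathway itself and of oocytes gave other counts. Of 9 tested pathway genes, 2 were lower in rde-4 than in WT, beside 16% of all genes tested. They were alg-3 at -1.25 (edgeR adjusted p = 0.0131) and alg-4 at -1.20 (adjusted p = 0.0277), which encode the sperm Argonautes. DESeq2 passed 1 of 12 pathway genes, beside 6.41% of all genes tested that were lower. In the double mutant against age-1, 3 of 8 pathway genes were lower, beside 30% of all genes tested, with alg-4 at -2.55 and alg-3 at -1.99. Whether these counts differ from the shares was not tested. Of the oocyte and hermaphrodite germline genes, 0 of 10 tested passed in rde-4 against WT in edgeR (0 at an unadjusted p under 0.05 and 0 in DESeq2), with a median of -0.34. In the double mutant against age-1, 1 of 7 was lower (0 in DESeq2), beside the 30% of all genes tested, with a median of 0.55. In age-1 against WT, 0 of 5 other class P genes, 0 of 4 class Q genes and 0 of 31 MSP genes passed in edgeR, with medians of 0.68, 0.59 and 0.73. At an unadjusted p under 0.05 in either direction these counts were 2, 1 and 9. DESeq2 passed 2 of 5, 0 of 4 and 3 of 30, all higher. Of the spe and fer genes 5 of 20 were higher in edgeR and 11 of 19 in DESeq2. Over all genes tested in age-1 against WT, 7.66% were higher in edgeR and 19.4% in DESeq2, and 1921 of 5000 had an unadjusted p under 0.05. The oocyte and hermaphrodite germline genes had a median of -0.95 in age-1 against WT, with 1 of 10 lower and 0 higher in edgeR, 5 at an unadjusted p under 0.05 in either direction and 0 in DESeq2. Their values ran from -1.20 to 0.68. Over all genes tested the median was -0.17 and 3.28% were lower in edgeR. The sperm gene lists and the oocyte list thus had medians of opposite sign in this comparison, and the part of germ cell makeup in the age-1 values was not tested.

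**Figure D5:**
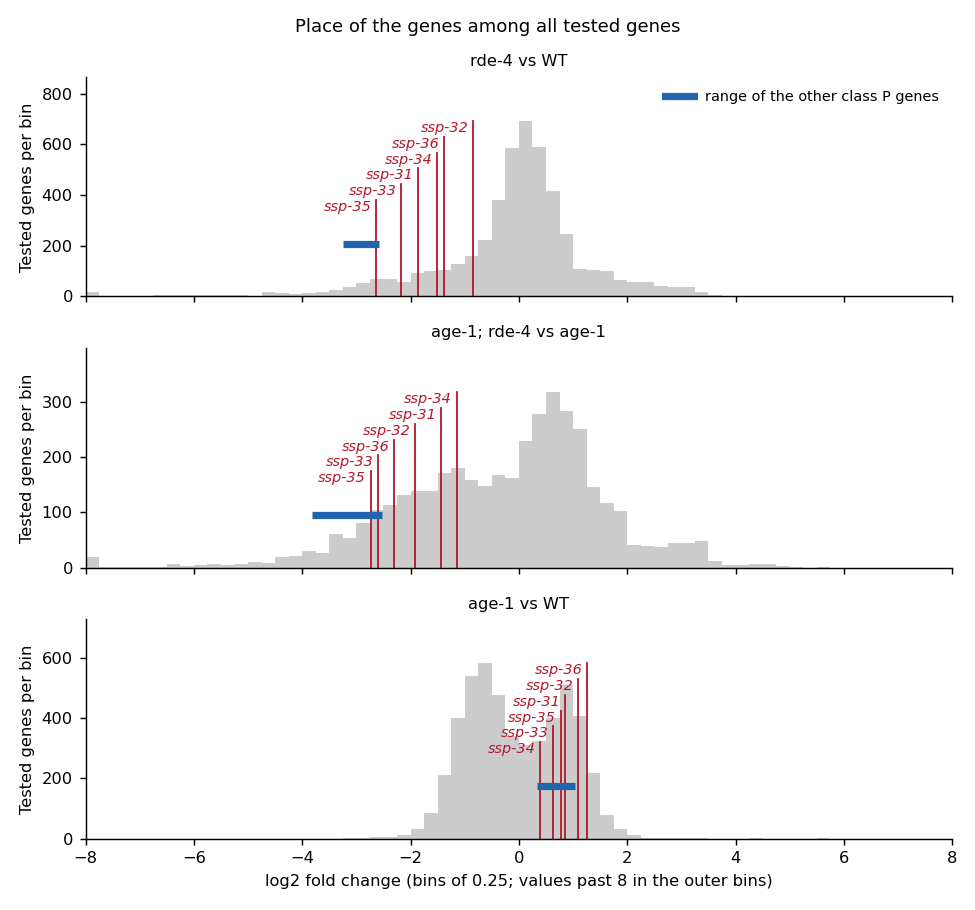
Histograms of the log2 fold changes of all tested genes (gray, bins of 0.25) with the 6 genes marked by red lines, each labelled at the left of its top, and the range of the other class P genes as a blue bar. For rde-4 against WT and the double mutant against age-1 the lines lie between -2.74 and -0.85, left of the medians of all genes at 0.06 and 0.02, and for age-1 against WT between 0.40 and 1.26.

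Across the 12 libraries the 6 genes moved in similar ways. Pearson correlations of log2(CPM + 1) between pairs of them lay between 0.72 (ssp-32 with ssp-34) and 0.95 (ssp-33 with ssp-35), over points that share libraries, strains and scaling. Reads with up to 50 hits were counted, so related genes may also share reads, and the part of this in the correlations was not tested. Among 1946 other genes with at least 5 CPM on average and no gene on the other strand, the 5 whose pattern was most like the mean of the set were C02F5.2, F11G11.14, ZK1225.4, Y69A2AR.19 and C09D4.3, with r between 0.98 and 0.99. C02F5.2, for example, averaged 12.05 ± 3.39 CPM in the double mutant, 47.9 ± 8.27 CPM in age-1, 9.23 ± 2.79 CPM in rde-4 and 23.0 ± 1.98 CPM in WT. ZK1225.4, on the same chromosome as ssp-31 and 2911 bp from it, averaged 2.00 ± 1.41 CPM in the double mutant, 28.4 ± 6.87 CPM in age-1, 1.47 ± 1.38 CPM in rde-4 and 8.66 ± 1.19 CPM in WT.

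Taken gene by gene, the closest pattern outside the set was that of F23B12.1 for ssp-31 (r = 0.99), F26F12.3 for ssp-32 (0.94), C17F3.3 for ssp-33 (0.99), F36A2.12 for ssp-34 (0.96), nspd-5 for ssp-35 (0.98) and C02F5.2 for ssp-36 (0.99). C17F3.3 averaged 10.8 ± 9.49 CPM in the double mutant and 216 ± 28.6 CPM in age-1, and 4.82 ± 1.39 CPM in rde-4 against 112 ± 27.8 CPM in WT. nspd-5, a gene of a nematode-specific peptide family, averaged 1.40 ± 1.95 CPM in the double mutant, 22.4 ± 7.71 CPM in age-1, 0.988 ± 1.15 CPM in rde-4 and 10.04 ± 1.52 CPM in WT. These correlations are descriptions over 12 libraries of 4 strains and carry no test.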

How the data were processed

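Small RNAs were sequenced from 12 populations. The authors mapped the reads to WBcel235 (WS283, RefSeq genes) using QuasR and Bowtie, dropped reads with over 50 hits and deposited raw antisense counts per gene. The version of each was not given in the sources used. The 6 columns held by more than 1 table agreed in every value and were used once. Columns named A1 to A3 were read as age-1 replicates 1 to 3.

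Strains were compared by the quasi-likelihood F test of edgeR 4.0.16 (R 4.3.3), two-sided, after TMM scaling and filterByExpr at its defaults, with Benjamini-Hochberg adjustment over all tested genes and a threshold of 0.05, each comparison on its 6 libraries and the interaction on all 12. SEs follow from the F statistic. Adjusted p-values are from edgeR unless DESeq2 (1.42.0) is named. The 5 pairwise comparisons share libraries, and their values are set side by side only. The scripts were tested on simulated counts. The labels call the libraries biological replicates.

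Positions come from the Ensembl annotation, release 115, and were identical in RefSeq for 7 of 7 genes. An opposite-strand overlap could be looked up for 29992 genes. Sharing of reads between the 7 genes, and their sequences, were not analysed here. Named genes were the 7 members, the 5 genes most like their mean profile over the 12 libraries, 1 most like each tested member, and others where a result turned on them. The members and lists were chosen with earlier results of these data known. Alternatives were other scalings, filters and fits, DESeq2, a replicate block and leaving out each library.

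In some comparisons libraries with the same replicate number deviated together. Correlations of deviations were 0.19 to 0.40 in rde-4 with WT and 0.22 to 0.39 in age-1 with WT. In the double mutant with rde-4 they were 0.10 to 0.31. In each of these comparisons, all 6 libraries correlated best with the library of their own number in the other strain. Libraries with the same number did not deviate together in the double mutant with age-1 (-0.17 to 0.16) or with WT (-0.08 to -0.01). There 2 and 0 libraries correlated best with their own number. These values alone do not establish a pairing, since the labels state no shared day or batch. The main fits left the replicate number out, and the block was an alternative.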

Additional observations from a re-analysis of the deposited data

How the results depend on the processing

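Of 540 alternative values of single genes, 503 stayed on their side of the threshold, 18 lost and 19 gained a call, and 0 calls reversed. A sign turned in 25 values that passed nowhere, 7 in the double mutant against rde-4 and 18 in the interaction (ssp-31 and ssp-34). Against 1 gene in age-1 versus WT, 4 passed with DESeq2, 0 with library totals, 2 with scaling by reads opposite miRNA genes, 2 with no filter and 2 among genes with no opposite-strand gene. Against 2 genes in the double mutant versus WT, 1 passed with DESeq2, 6 with library totals and 6 with scaling by reads opposite miRNA genes. Over all genes tested, 6.35%, 63.3% and 46.2% were lower under these settings, against 12.8% in the main fit. The causes were not tested. Over fits that left out 1 library, the number passing was 3 to 5 in rde-4 versus WT, 0 to 2 in age-1 versus WT, 5 to 6 in the double mutant versus age-1, 0 to 0 versus rde-4, 0 to 3 versus WT and 0 to 0 for the interaction. In these fits 12.4% to 14.1% of all genes tested were lower in rde-4 versus WT, and 0.16% to 21.7% were higher in age-1 versus WT. In the double mutant 21.5% to 30.9% were lower versus age-1 and 7.28% to 11.4% versus WT.

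The replicate block gave 4 passing genes in age-1 versus WT and changed no other count (5, 6, 0, 2 and 0 in the other comparisons). For all genes tested, the split of higher to lower moved with the scaling from 590 and 508 to 322 and 2516 (library totals) in the double mutant versus WT, from 19 and 12 to 12 and 977 versus rde-4, and from 383 and 164 to 547 and 42 (reads opposite miRNA genes) in age-1 versus WT. In rde-4 versus WT it moved from 516 and 767 to 391 and 885 with library totals. With the block, 1958 genes passed in age-1 versus WT in place of 547, and 181 in place of 31 in the double mutant versus rde-4. Shared words between the genes as a measure of read sharing could not be computed and were not run. Depth limits ssp-37 in every strain and ssp-32 and ssp-33 where RDE-4 was lost.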
